A study of Homo sapiens with 6 samples.

Results

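The 10 genes described here encode transcription factors of the basic helix-loop-helix Per-ARNT-Sim (bHLH-PAS) family: the dimer partners ARNT and ARNT2, the hypoxia-inducible factor (HIF) subunits HIF1A, EPAS1 and HIF3A, the aryl hydrocarbon receptor AHR, the neuronal-type factors NPAS1 and SIM2, and the clock factors NPAS2 and CLOCK. They were chosen by gene symbol from the 17721 genes of the authors' table, and all 10 were found. The list was drawn up with the difference of ARNT2 between the groups known, so the values of these genes in that comparison are descriptions with no test of their own. Of the 10, 9 passed the filter on low counts, and HIF3A did not.

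RNA was sequenced from 6 cultures of MDA-MB-231BR, a brain-tropic subline of MDA-MB-231, an established human breast cancer line. A short hairpin RNA (shRNA) against ACSS2 was carried by 3 of them, ACSS2 being the enzyme that makes acetyl-CoA from acetate outside mitochondria, and 3 carried a control hairpin. Hairpins of both groups were delivered by lentivirus into the same line, followed by antibiotic selection, in cells grown as monocultures in serum-containing medium. The labels call the libraries biological replicates and number them 1 to 3 in both groups under a batch tag. In the sample titles the number directly follows the word shRNA. The labels do not say how many hairpin sequences were used, or whether the numbers stand for different hairpins. The sources used here do not state the oxygen level of the cultures. The comparison asks which transcripts differ in cells with an ACSS2 hairpin.

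A bHLH-PAS factor binds DNA as a dimer. AHR and the HIF alpha subunits are sensors, held back by chaperones or destroyed by an oxygen-dependent pathway until a ligand or low oxygen releases them, and they then pair with ARNT or its close relative ARNT2, which is best known from neurons. HIF dimers drive genes of glucose use, blood vessel growth and matrix cross-linking, AHR dimers drive cytochrome P450 genes, and CLOCK or NPAS2 pair with BMAL1 to run the circadian clock. HIF and AHR proteins are controlled largely after translation, so their mRNA levels do not give their activity.

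The ARNT and ARNT2 transcripts are shown first, because a count for one could include reads of the other only where their sequences are alike. In the GENCODE release 29 transcripts, the longest identical run of ARNT2 and ARNT was 17 bases. It lies in the coding sequence, from codon 162 of ARNT2 and codon 188 of ARNT, and is in capitals within its surroundings.
ARNT2: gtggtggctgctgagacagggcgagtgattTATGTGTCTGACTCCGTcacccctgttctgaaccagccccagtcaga
ARNT: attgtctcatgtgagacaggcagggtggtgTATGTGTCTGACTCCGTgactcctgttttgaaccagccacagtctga
The ARNT2 window lies at chr15:80475055-80475131 and the ARNT window at chr1:150836372-150836448 (GRCh38), each within 1 exon. NPAS2 and CLOCK shared at most 14 bases and EPAS1 and HIF1A at most 13. The longest run shared by any 2 of the 10 genes was 35 bases, between HIF3A and AHR after their stop codons.

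**Figure D1:**
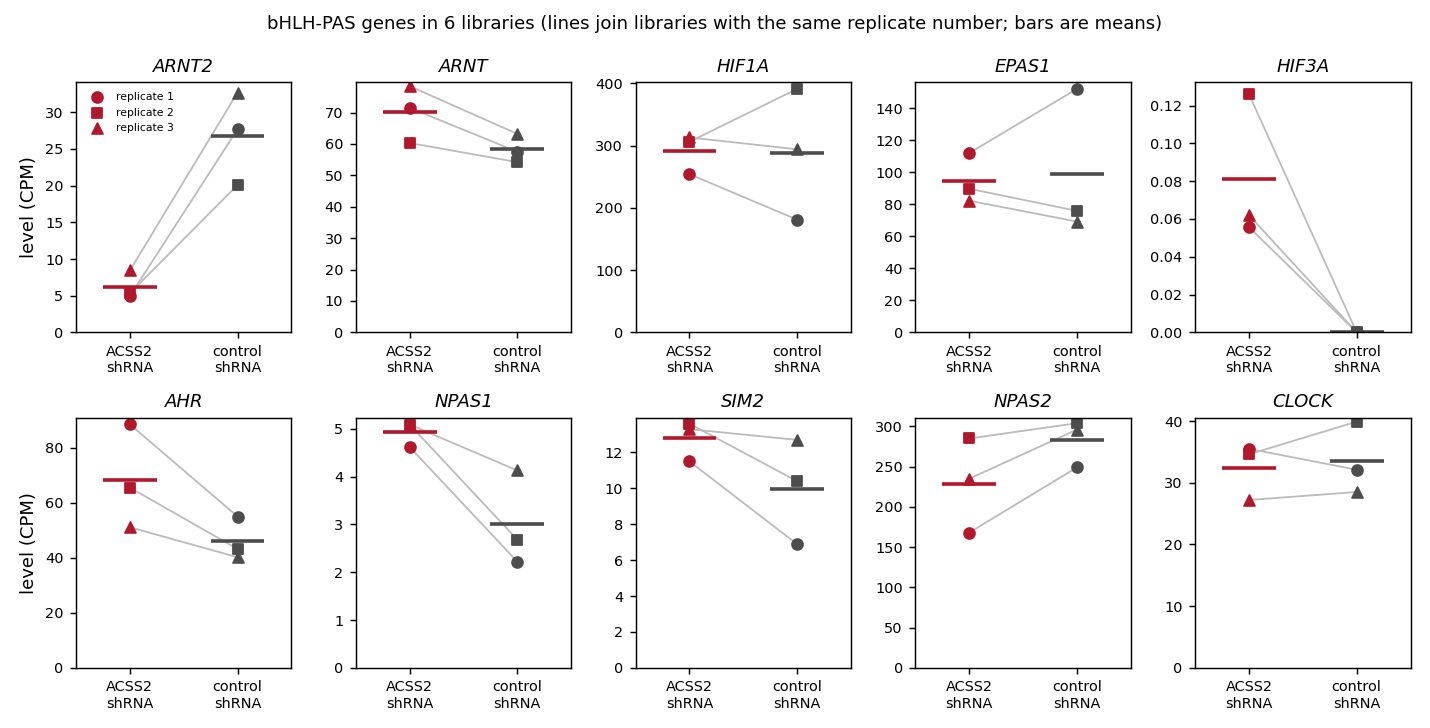
Level of each bHLH-PAS gene in CPM (counts scaled to library size with TMM factors) on the vertical axis, for ACSS2 shRNA (red) and control shRNA (grey) libraries; symbols mark the replicate number, lines join equal numbers and bars are means of 3. ARNT2 lies between 4.95 and 8.44 CPM in ACSS2 shRNA libraries and between 20.1 and 32.7 CPM in controls, and the HIF3A points stand for 1 or 2 counts.

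Total counts were between 15048275 and 18608124 per library. The hairpin's target, ACSS2, had 11.1, 50.5 and 88.7 CPM in ACSS2 shRNA replicates 1, 2 and 3 and 76.3, 71.2 and 164 CPM in control replicates 1, 2 and 3. Within each number the ACSS2 shRNA library had less of it, while ACSS2 shRNA replicate 3 lay above control replicates 1 and 2, so the groups overlapped. The log2 fold change of ACSS2 was -1.05 (SE 0.64, edgeR adjusted p = 0.504) without and -1.31 (SE 0.30, adjusted p = 0.00757) with the replicate number as a block, and -0.70 (adjusted p = 0.00249) with the block and without number 1. The line showed its known basal and mesenchymal profile: all 7 markers of it (VIM and CD44 among them) were above 1 TPM in all 6 libraries, summing to 8207 to 8783 TPM in ACSS2 shRNA and 7588 to 8220 TPM in control libraries. With the block CD44 (log2 fold change -0.57, edgeR adjusted p = 0.00598) and CAV1 (-0.35, adjusted p = 0.0348) were lower. FN1 (0.87, adjusted p = 0.000539) and KRT7 (0.76, adjusted p = 0.00992) were higher. VIM, EGFR and MSN had adjusted p from 0.593 to 0.877. Without the block all 7 had adjusted p of at least 0.19. Of 8 luminal markers 5 were above 1 TPM in all libraries, summing to 623 to 1065 TPM in ACSS2 shRNA and 561 to 1115 TPM in control libraries. Of the remaining luminal markers, CDH1 was listed at 0.05 TPM in 1 library and at 0 in the other 5. GATA3 was lower without overlap of the groups (log2 fold change -0.95, edgeR adjusted p = 0.0102 with and 0.245 without the block). No other tested luminal marker had an adjusted p under 0.05. The 4 endothelial markers summed to 2.76 to 7.44 TPM in ACSS2 shRNA and 1.81 to 2.5 TPM in control libraries, and of these CDH5 was higher within every number (log2 fold change 1.79, edgeR adjusted p = 0.00394 with and 0.217 without the block). The 4 immune markers summed to 414 to 819 TPM in ACSS2 shRNA and 383 to 889 TPM in control libraries, nearly all of it CD68, with PTPRC and CD3E at or below 0.18 TPM. The 4 neural markers summed to 31.9 to 77 TPM in ACSS2 shRNA and 42.1 to 95.2 TPM in control libraries, with SYP and GFAP at or below 0.36 TPM. The other two neural markers were lower within every number, as ARNT2 was. RBFOX3 had 0.72, 6.39 and 12 TPM in ACSS2 shRNA replicates 1, 2 and 3 and 1.19, 10.2 and 21.3 TPM in control replicates 1, 2 and 3 (log2 fold change -0.82, adjusted p = 0.00221 with and 0.76 without the block). MBP had 30.8, 44.5 and 64.6 TPM in ACSS2 shRNA replicates 1, 2 and 3 and 40.5, 52.8 and 73.6 TPM in control replicates 1, 2 and 3 (-0.41, adjusted p = 0.022 with and 0.668 without the block). Both followed the replicate number, with overlapping groups. The immune marker CD14 was higher within every number (1.30, adjusted p = 0.00711 with and 0.388 without the block). The part of these levels in the results below was not tested.

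Genes were compared with the quasi-likelihood test of edgeR, once without and once with the replicate number as a block, and called at an adjusted p under 0.05 over all 13003 genes tested. Without the block 0.0692% of genes were called, 0.0231% higher and 0.0461% lower in ACSS2 shRNA cells. With the block 25.1% were called, 12.7% higher and 12.4% lower. Of the 9 bHLH-PAS genes tested, none was called without the block, where 2 had an unadjusted p under 0.05, and 3 were called with it: AHR and NPAS1 higher and ARNT2 lower. With the block and without number 2 only ARNT2 was called, and without number 1 NPAS1 was not. Since ARNT2 was among the reasons for the list, these counts are not read against those shares. The median log2 fold change of the 9 genes was 0.01 without and 0.08 with the block, and 0.02 over all genes in both fits.

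ARNT2 was several-fold lower in ACSS2 shRNA cells than in controls and was the only one of the 9 to differ by more than 2-fold in either fit. It had 89, 85 and 136 counts in ACSS2 shRNA replicates 1, 2 and 3 and 487, 352 and 506 counts in control replicates 1, 2 and 3. In CPM these were 4.95, 5.34 and 8.44 in ACSS2 shRNA and 27.7, 20.1 and 32.7 in control libraries. Every ACSS2 shRNA library lay below every control library, and the highest ACSS2 shRNA library stood well under the lowest control one. ARNT2 averaged 6.24 ± 1.91 CPM in ACSS2 shRNA and 26.8 ± 6.35 CPM in control cells (SD, n = 3 each). The fold was 4.29 without and 4.32 with the block, lower in ACSS2 shRNA cells, at a log2 fold change of -2.10 (SE 0.29) and -2.11 (SE 0.16). Within replicate numbers 1, 2 and 3 the log2 CPM difference was -2.46, -1.89 and -1.94. In bulk RNA, fewer cells with a transcript and less of it per cell cannot be told apart. ARNT2 (gene ID 9915) spans chromosome 15 from 80404350 to 80598005 on GRCh38, in band 15q25.1.

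**Figure D2:**
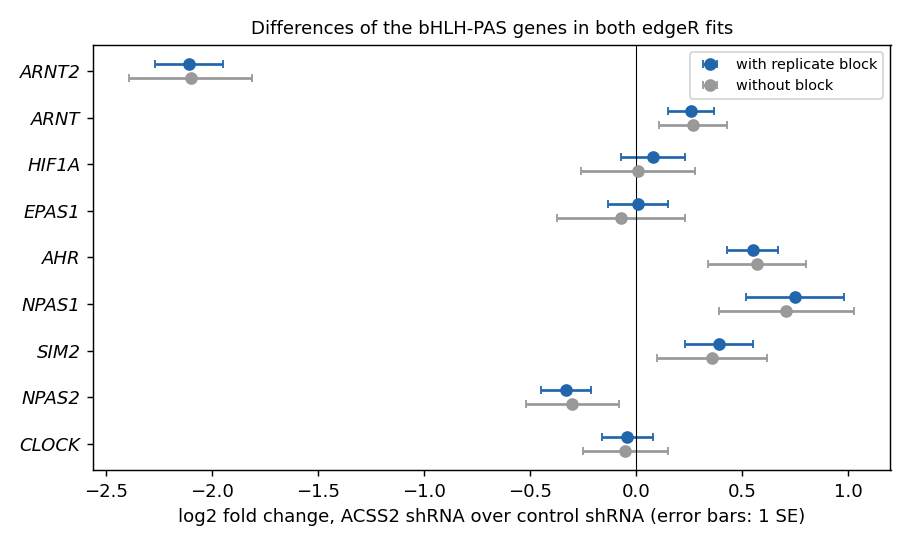
Log2 fold change of the 9 tested bHLH-PAS genes, ACSS2 shRNA over control shRNA, on the horizontal axis, with 1 SE either way; blue points are the edgeR fit with the replicate block and grey points the fit without it. ARNT2 stands apart at -2.11 and -2.10, while the other 8 lie between -0.33 and 0.75.

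ARNT, the broadly expressed partner of the HIF and AHR proteins, was near its control level. It had 71.5, 60.3 and 78.4 CPM in ACSS2 shRNA replicates 1, 2 and 3 and 57.5, 54.2 and 63.2 CPM in control replicates 1, 2 and 3. It was slightly higher in each ACSS2 shRNA library than in the control of its number, and the groups overlapped in CPM. The log2 fold change was 0.27 (SE 0.16) without and 0.26 (SE 0.11) with the block.

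Because TPM are scaled by transcript length, the amounts of the 2 partners could be set side by side. ARNT2 had 1.46, 1.58 and 2.25 TPM in ACSS2 shRNA replicates 1, 2 and 3 and 7.11, 5.6 and 8.44 TPM in control replicates 1, 2 and 3. ARNT was the more abundant partner in all 6 libraries, at 30.6 ± 2.75 TPM in ACSS2 shRNA and 23.6 ± 1.14 TPM in control cells. ARNT2 made up 4.31%, 5.45% and 6.59% of the sum of both in ACSS2 shRNA libraries and 24%, 19.4% and 25.4% in control libraries. The sum itself was 33.9, 29 and 34.1 TPM in ACSS2 shRNA and 29.7, 28.9 and 33.2 TPM in control libraries. The share of ARNT2 separated the groups, and the summed level did not. ARNT had 32.4, 27.4 and 31.9 TPM in ACSS2 shRNA and 22.6, 23.3 and 24.8 TPM in control libraries. In TPM its groups thus did not overlap, unlike in CPM. The median log2 fold change of all genes was 0.12 in TPM (limma, pseudocount 0.1) and 0.02 in counts.

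**Figure D3:**
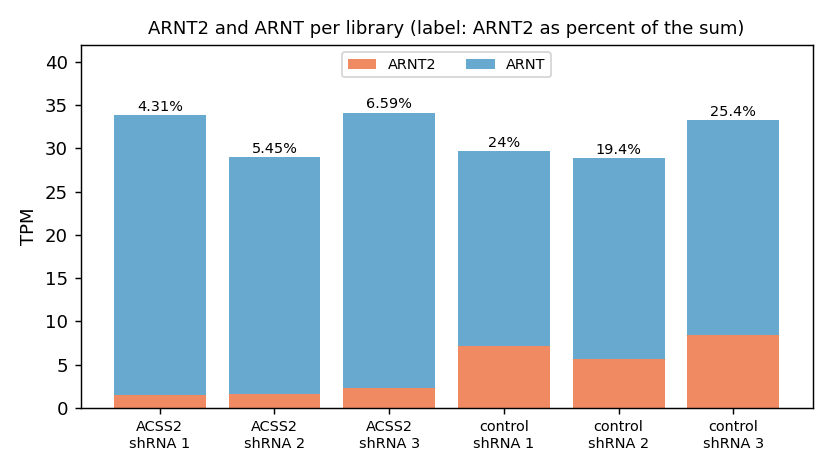
TPM of ARNT2 (orange) and ARNT (blue) stacked on the vertical axis for each library, with the share of ARNT2 printed above each bar. The share is 4.31% to 6.59% in ACSS2 shRNA and 19.4% to 25.4% in control libraries, at sums of 28.9 to 34.1 TPM.

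HIF1A, the alpha subunit that acts in nearly all cells under low oxygen, did not separate the groups. It had 254, 306 and 313 CPM in ACSS2 shRNA replicates 1, 2 and 3 and 181, 391 and 294 CPM in control replicates 1, 2 and 3. Control replicates 1 and 2 were the lowest and the highest of the 6 libraries, so the ACSS2 shRNA values fell inside the range of the controls. Its log2 fold change was 0.01 (SE 0.27) without and 0.08 (SE 0.15) with the block. EPAS1, which encodes HIF-2 alpha, had 112, 89.7 and 82.2 CPM in ACSS2 shRNA replicates 1, 2 and 3 and 152, 75.9 and 69.2 CPM in control replicates 1, 2 and 3. Here control replicate 1 was the highest library, and within numbers the log2 difference was -0.44, 0.24 and 0.25. The log2 fold change was -0.07 (SE 0.30) without and 0.01 (SE 0.14) with the block. HIF3A, whose product can counteract the other HIFs, had 1, 2 and 1 counts in ACSS2 shRNA and 0 in all 3 control libraries. All of these values lie at or under the floor of 3 counts per library, so no fold is given.

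AHR, the receptor for dioxins and tryptophan metabolites, was moderately above its control level. It had 88.5, 65.5 and 51.1 CPM in ACSS2 shRNA replicates 1, 2 and 3 and 55, 43.2 and 40.2 CPM in control replicates 1, 2 and 3. Each ACSS2 shRNA library was above the control of its number, but ACSS2 shRNA replicate 3 was below control replicate 1. The fold was 1.48 without and 1.46 with the block, at a log2 fold change of 0.57 (SE 0.23) and 0.55 (SE 0.12), and 0.32 (SE 0.23) without the block and ACSS2 shRNA replicate 1.

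NPAS1, a repressor known from interneurons, had 83, 81 and 82 counts in ACSS2 shRNA replicates 1, 2 and 3 and 39, 47 and 64 counts in control replicates 1, 2 and 3. In CPM it stood at 4.62, 5.09 and 5.09 in ACSS2 shRNA and 2.22, 2.68 and 4.13 in control libraries. The groups did not overlap, control replicate 3 lying closest to the ACSS2 shRNA libraries. Its log2 fold change was 0.71 (SE 0.32) without and 0.75 (SE 0.23) with the block. SIM2, named after the fly midline gene single-minded, had 11.5, 13.6 and 13.3 CPM in ACSS2 shRNA replicates 1, 2 and 3 and 6.89, 10.4 and 12.7 CPM in control replicates 1, 2 and 3. It showed the same order of the controls with smaller gaps, and the groups overlapped. The log2 fold change of SIM2 was 0.36 (SE 0.26) without and 0.39 (SE 0.16) with the block.

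NPAS2, which can replace CLOCK as the partner of BMAL1, had 168, 285 and 235 CPM in ACSS2 shRNA replicates 1, 2 and 3 and 249, 304 and 296 CPM in control replicates 1, 2 and 3. Within every number its ACSS2 shRNA library was the lower one, with overlapping groups, at a log2 fold change of -0.30 (SE 0.22) without and -0.33 (SE 0.12) with the block. CLOCK had 35.5, 34.6 and 27.2 CPM in ACSS2 shRNA replicates 1, 2 and 3 and 32.1, 39.9 and 28.5 CPM in control replicates 1, 2 and 3. No order of the groups was seen, and its log2 fold change was -0.05 (SE 0.20) and -0.04 (SE 0.12).

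Per transcript length, NPAS2 and HIF1A were the most abundant of the 10 in control cells, at 143 ± 19 and 126 ± 51.2 TPM, and did not differ beyond their spread. EPAS1 at 33.2 ± 14.5 TPM and ARNT came next, followed by AHR at 12.8 ± 1.96 TPM. ARNT2 at 7.05 ± 1.42, CLOCK at 6.32 ± 1.12, SIM2 at 4.5 ± 1.1 and NPAS1 at 3.61 ± 1.06 TPM formed a low group. ARNT2 and CLOCK lay within each other's spread, and so did SIM2 and NPAS1. Every CLOCK control library was above every SIM2 control library, at 5.4 TPM or more against 5.34 TPM or less. In ACSS2 shRNA cells ARNT2, at 1.76 ± 0.426 TPM, was below CLOCK (6.5 ± 1.16), NPAS1 (6.63 ± 0.682) and SIM2 (6.21 ± 0.12), and only HIF3A was lower.

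The replicate numbers gave a comparison that played no part in choosing the genes. In the fit with group and replicate number, 5 of the 9 genes differed between numbers at an adjusted p under 0.05, where 38.7% of all genes did. EPAS1 averaged 132, 82.8 and 75.7 CPM over both groups in numbers 1, 2 and 3 (edgeR adjusted p = 0.00531), and AHR 71.7, 54.4 and 45.6 CPM (adjusted p = 0.0111). Both were highest in number 1. HIF1A went the other way, at 217, 348 and 304 CPM in numbers 1, 2 and 3 (adjusted p = 0.0248), and so did NPAS2, at 208, 295 and 266 CPM (adjusted p = 0.0376). ARNT2 averaged 16.3, 12.7 and 20.6 CPM in numbers 1, 2 and 3 (adjusted p = 0.0291). ARNT, NPAS1, SIM2 and CLOCK did not pass, with adjusted p from 0.0951 to 0.341.

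The 5 genes whose profile over the 6 libraries was most like that of ARNT2 were STK40, R3HDM4, HS1BP3, TMEM9 and TOMM34. The measure was the root mean square difference of log2 CPM centred on each gene's mean, which was 0.16 for STK40, 0.17 for R3HDM4, 0.21 for HS1BP3 and 0.22 for TMEM9 and for TOMM34. STK40, for example, had 62.4, 62.5 and 118 CPM in ACSS2 shRNA replicates 1, 2 and 3 and 278, 253 and 341 CPM in control replicates 1, 2 and 3. As in ARNT2, number 3 was the highest in both groups.

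The hexamer TGGGTC was looked for in 3′ UTRs, and ARNT2 holds several copies of it. It was found in the 3′ UTR of 5 of the 10 bHLH-PAS genes, the untested HIF3A included. Over tested genes with an annotated 3′ UTR, 26.1% of 12765 held it. Of those called with the block, 40.9% of 1598 lower and 23.8% of 1632 higher genes held it. The hexamer was chosen with earlier results of these data known, and 3′ UTR length was not allowed for, so these shares are descriptions. ARNT2, with 4239 bases of 3′ UTR, held 3 copies, and EPAS1, NPAS2, SIM2 and HIF3A held 1 each. The sites of the 4 tested genes follow, with the hexamer in capitals, and that of ACSS2 itself after them (GENCODE release 29, GRCh38, transcript strand).
ARNT2, chr15:80593957-80593986, plus strand: aggtgagcctagTGGGTCcttaagtttggt
ARNT2, chr15:80595669-80595698, plus strand: tgtaatggtgatTGGGTCtccactgtagat
ARNT2, chr15:80596845-80596874, plus strand: ctccatcaggacTGGGTCagtgatggcaac
EPAS1, chr2:46386096-46386125, plus strand: ggctgaggtctcTGGGTCggtcagtgacat
NPAS2, chr2:100995986-100996015, plus strand: ttggagaaggacTGGGTCagagatctgttg
SIM2, chr21:36749554-36749583, plus strand: aatttaggaccgTGGGTCatgcagcgaagg
ACSS2, chr20:34927661-34927690, plus strand: ctgcttctgttcTGGGTCtgaattcccttt
EPAS1, NPAS2 and SIM2, with 1 copy each, had log2 fold changes of 0.01, -0.33 and 0.39 with the block. ARNT, HIF1A, AHR, NPAS1 and CLOCK held none. Of the 5 genes picked for a profile like that of ARNT2, TMEM9 held 4 copies, HS1BP3 3, STK40 and R3HDM4 1 each, and TOMM34 none. Copies are not read against fold changes, since these genes and ARNT2 were chosen with their values known and 3′ UTR lengths differ. The part of the hexamer in these differences was not tested.

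The 9 other bHLH-PAS genes of the family include BMAL1 and BMAL2, partners of CLOCK and NPAS2, the AHR repressor AHRR and the nuclear receptor coactivators NCOA1, NCOA2 and NCOA3. This list and those that follow were chosen with earlier results of these data known, so their counts beside the shares of all genes are descriptions. Of 7 tested, 3 rose, none fell and 4 were not called with the block, where 12.7% of all genes rose and 12.4% fell, and none was called without it, where 1 had an unadjusted p under 0.05. NCOA3 rose, at 68.7, 59.1 and 69.7 CPM in ACSS2 shRNA replicates 1, 2 and 3 and 40.5, 47.2 and 48.8 CPM in control replicates 1, 2 and 3. The groups did not overlap, and NCOA3 was higher by 0.53 on the log2 scale in either fit (edgeR adjusted p = 0.00703 with and 0.201 without the block). AHRR rose by 0.85 (adjusted p = 0.0241) and NCOA2 by 0.48 (adjusted p = 0.0303) on the log2 scale with the block. With DESeq2 and the same block neither passed (AHRR 0.84, adjusted p = 0.0711; NCOA2 0.46, adjusted p = 0.0897). In edgeR with the block AHRR was not called without number 1 (0.70, adjusted p = 0.0768) or number 3 (0.80, adjusted p = 0.0891), and NCOA2 not without number 1 (0.35, adjusted p = 0.14) or number 2 (0.50, adjusted p = 0.105). BMAL1 (listed as ARNTL) and BMAL2 (listed as ARNTL2) had log2 fold changes of 0.05 and -0.05 with the block. NPAS3 was not called with the block in edgeR (-0.94, SE 0.62, adjusted p = 0.292), but without number 2 it was called lower, at -2.23. Its counts were low, at 2 to 12 in ACSS2 shRNA and 7 to 18 in control libraries. NPAS4 had no counts in any library, and SIM1 was too low to test.

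Of 12 genes tested that control HIF proteins, 4 rose, none fell and 8 were not called with the block, where 12.7% of all genes rose and 12.4% fell. None was called by edgeR without the block, where 2 had an unadjusted p under 0.05, and DESeq2 without the block called VHL (0.83, adjusted p = 0.0428). The median log2 fold change was 0.15 in both fits. VHL, the ubiquitin ligase subunit that marks HIF alpha subunits for destruction, had 101, 83.5 and 70.2 CPM in ACSS2 shRNA replicates 1, 2 and 3 and 56.5, 34.8 and 49.3 CPM in control replicates 1, 2 and 3. All ACSS2 shRNA libraries were above all controls, and VHL rose 1.83-fold (log2 fold change 0.87, SE 0.14, adjusted p = 0.000943 with and 0.151 without the block). EGLN3, an oxygen-sensing prolyl hydroxylase that is itself induced by HIF, had 19.2, 11.7 and 6.89 CPM in ACSS2 shRNA replicates 1, 2 and 3 and 10.7, 3.54 and 3.75 CPM in control replicates 1, 2 and 3. It was higher within every number with overlapping groups, and rose by 1.13 on the log2 scale (SE 0.20, adjusted p = 0.00166 with and 0.407 without the block). The related hydroxylase EGLN2 rose by 0.50 (adjusted p = 0.00552) and the coactivator EP300 by 0.39 (adjusted p = 0.0201) with the block. Without number 2 neither was called (EGLN2 0.46, adjusted p = 0.0674; EP300 0.33, adjusted p = 0.229), nor was EP300 without number 3 (0.39, adjusted p = 0.0657). The hydroxylases EGLN1 (0.30) and HIF1AN (-0.17), the ligase subunits CUL2, ELOB, ELOC and RBX1 (-0.16 to 0.07) and the coregulators CREBBP (0.24) and CITED2 (-0.12) were not called.

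The list of canonical HIF targets was chosen with earlier results of these data known, so its counts and shares, here and below, are descriptions. In them the targets were more often higher than lower. Of the 30 listed, STC2 was too low to test. Of the 29 tested, 15 rose, 1 fell and 13 were not called with the block, where 12.7% of all genes rose and 12.4% fell, and none was called without the block, where 9 had an unadjusted p under 0.05. Their median log2 fold change was 0.37 without and 0.40 with the block, against 0.02 over all genes. The glucose transporter SLC2A3 had 132, 126 and 167 CPM in ACSS2 shRNA replicates 1, 2 and 3 and 44.5, 38 and 71.6 CPM in control replicates 1, 2 and 3. The groups did not overlap, and SLC2A3 rose 2.83-fold (log2 fold change 1.50, SE 0.12, adjusted p = 1.56e-05 with and 0.0906 without the block). BHLHE40, a bHLH repressor induced by hypoxia, had 427, 562 and 691 CPM in ACSS2 shRNA replicates 1, 2 and 3 and 249, 134 and 284 CPM in control replicates 1, 2 and 3. It too showed no overlap, and rose by 1.37 on the log2 scale (SE 0.19, adjusted p = 0.000439 with and 0.118 without the block). The matrix cross-linking enzyme LOX rose by 0.84 (adjusted p = 0.000698 with and 0.185 without the block) and the histone demethylase KDM3A by 0.96 (adjusted p = 0.000261 and 0.177), both without overlap of the groups. ANGPTL4, a lipoprotein lipase inhibitor, rose by 1.66 (SE 0.20, adjusted p = 0.000197 with and 0.473 without the block). It had 78.2, 27.6 and 25.6 CPM in ACSS2 shRNA replicates 1, 2 and 3 and 39.2, 7.24 and 5.17 CPM in control replicates 1, 2 and 3, so the groups overlapped through control replicate 1. The 1 target that fell was MXI1, a MYC antagonist named after its values were seen (log2 fold change -0.64, adjusted p = 0.00243 with and 0.252 without the block).

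**Figure D4:**
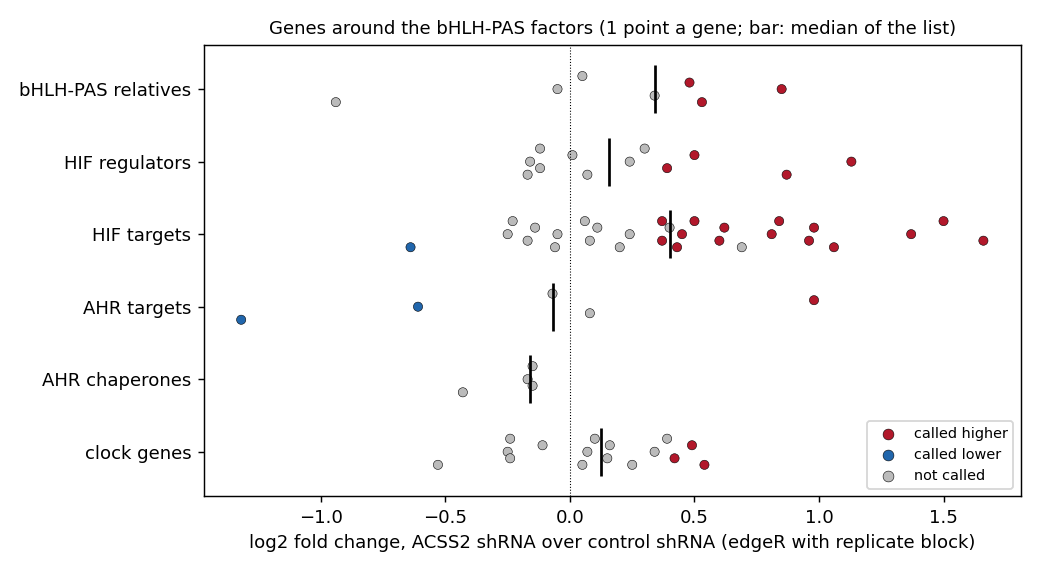
Log2 fold change of each tested gene in 6 lists on the horizontal axis (ACSS2 shRNA over control shRNA, edgeR with the replicate block); red points were called higher, blue lower and grey not called, and the bar is the median. The HIF targets lie mostly to the right, with a median of 0.40, and the AHR targets are split around -0.07.

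The rise was not shared by all HIF targets, and the differences within replicate numbers varied in size. The glycolytic genes LDHA, PGK1, ENO1, ALDOA and HK2 and the glucose transporter SLC2A1, named after their values were seen, were not called and had log2 fold changes of -0.17 to 0.11 with the block. The median difference of the 29 genes was 0.24, 0.68 and 0.22 in numbers 1, 2 and 3, against 0.04, 0.00 and 0.02 over all genes, and 17 of the 29 (58.6%) were higher within all 3 numbers, against 30.5% of all genes. NDRG1, a stress-induced gene named after its values were seen, had unlike differences within numbers. It had 2748, 1314 and 1247 CPM in ACSS2 shRNA replicates 1, 2 and 3 and 2184, 343 and 663 CPM in control replicates 1, 2 and 3, so its log2 difference was 0.33, 1.94 and 0.91 within numbers 1, 2 and 3. Without number 2 only 5 were called higher (ANGPTL4, BHLHE40, KDM3A, LOX and SLC2A3), where 5.08% of all genes were. Of the 29, 19 also differed between replicate numbers, where 38.7% of all genes did, and 17 of these 19 were highest in number 1. The share of all genes highest in number 1 was not counted, so this order is a description. Each number holds a single library of each group, so whether the size of the differences depends on the number was not tested.

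**Figure D5:**
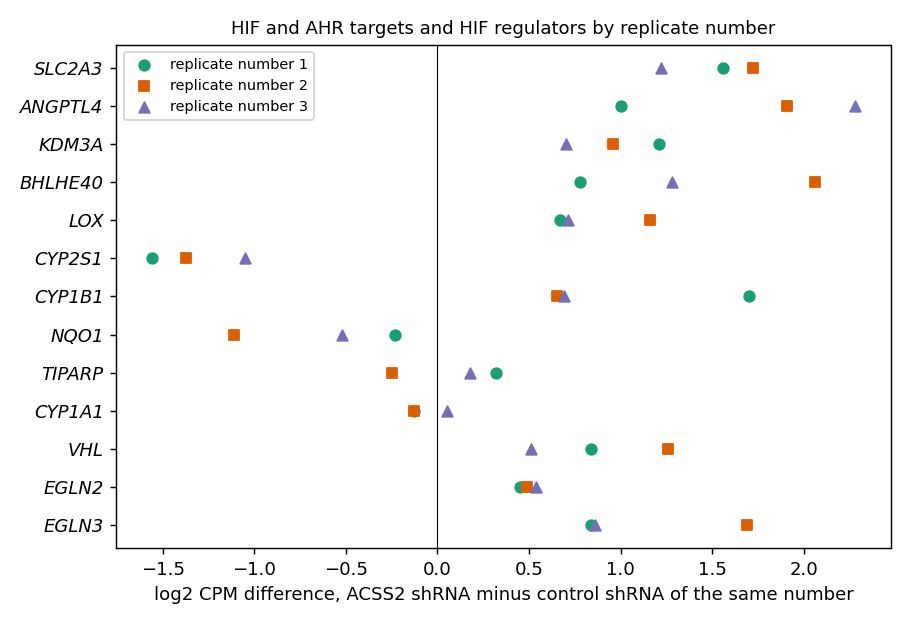
Log2 CPM difference of ACSS2 shRNA minus control shRNA within each replicate number (horizontal axis, 1 symbol and colour a number) for the 5 HIF and 5 AHR targets with the smallest p and 3 HIF regulators. The HIF targets and regulators shown lie right of 0 in all 3 numbers, CYP2S1 and NQO1 left of 0, and TIPARP and CYP1A1 on both sides. The HIF targets were picked by p and the regulators were called higher, so their common side follows largely from the choice. Of all 29 HIF targets tested, 17 were higher and 3 lower within all 3 numbers. Of all 12 HIF regulators, 6 were higher and 2 lower.

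The HIF core motif ACGTG was looked for on both strands of 300-base RefSeq promoters (GRCh38.p14), to show where the listed targets carry it. It was found in 22 of the 40 promoters (55%) of 25 HIF targets, 25.3% of the 15140 promoters of tested genes and 21.4% of all 35116 promoters. Several matches occurred with and without a called rise: both KDM3A promoters held none and that of ANGPTL4 held 1, while among targets that were not called LDHA held up to 5, HK2 up to 4 and PGK1 3 in a promoter. BHLHE40 and LOX, which rose, are printed because their promoters hold several matches, with each ACGTG or its reverse complement CACGT in capitals.
BHLHE40, chr3:4979187-4979486, plus strand: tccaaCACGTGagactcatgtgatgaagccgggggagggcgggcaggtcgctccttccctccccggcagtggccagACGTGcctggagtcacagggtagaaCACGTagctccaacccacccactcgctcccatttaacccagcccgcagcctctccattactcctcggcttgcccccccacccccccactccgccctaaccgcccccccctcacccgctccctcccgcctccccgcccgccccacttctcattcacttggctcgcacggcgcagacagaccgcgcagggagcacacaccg
LOX, chr5:122078210-122078509, minus strand: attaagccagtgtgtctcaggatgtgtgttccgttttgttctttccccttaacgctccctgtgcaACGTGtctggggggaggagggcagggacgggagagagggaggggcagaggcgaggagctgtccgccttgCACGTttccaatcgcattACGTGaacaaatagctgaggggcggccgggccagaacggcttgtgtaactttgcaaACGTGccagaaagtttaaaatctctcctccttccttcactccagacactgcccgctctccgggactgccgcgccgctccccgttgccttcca
Each held 4 matches, counting the CACGTG of BHLHE40, which reads the same on both strands and is also the clock motif, once per strand. LOX has 3 promoters in the table, of which the one shown holds the most matches. A match describes the letters only. Of the 10 bHLH-PAS genes, 8 had promoters in the RefSeq table, and those of ARNT2 and SIM2 were not used here.

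Of 5 AHR targets tested, 1 rose, 2 fell and 2 were not called with the block, where 12.7% of all genes rose and 12.4% fell. None was called by edgeR without the block, where 2 had an unadjusted p under 0.05, and DESeq2 without the block called CYP2S1 lower (-1.31, adjusted p = 0.00598). CYP1A2, UGT1A6 and ALDH3A1 were too low to test. CYP1B1, an estrogen-metabolising P450, had 14.1, 17 and 21 CPM in ACSS2 shRNA replicates 1, 2 and 3 and 4.27, 10.8 and 13 CPM in control replicates 1, 2 and 3. It rose without overlap of the groups (log2 fold change 0.98, SE 0.20, adjusted p = 0.00353 with and 0.355 without the block). CYP2S1, another P450, had 5.85, 8.55 and 12.7 CPM in ACSS2 shRNA replicates 1, 2 and 3 and 17.4, 22.2 and 26.4 CPM in control replicates 1, 2 and 3. It fell, again without overlap (-1.32, SE 0.15, adjusted p = 0.000136 with and 0.133 without the block). NQO1, a quinone reductase that NRF2 also drives, fell by 0.61 on the log2 scale (adjusted p = 0.0114 with and 0.509 without the block), but was not called without number 2 (-0.41, adjusted p = 0.114). CYP1A1, the classic AHR target, had 7.24, 12.5 and 22.6 CPM in ACSS2 shRNA replicates 1, 2 and 3 and 7.92, 13.7 and 21.8 CPM in control replicates 1, 2 and 3. It followed the replicate number (adjusted p = 0.000149 between numbers) and not the group, with a log2 fold change of -0.07 (SE 0.14). TIPARP, which restrains AHR, had 0.08 (SE 0.13). The chaperones HSP90AA1, HSP90AB1 and PTGES3, which hold AHR in the cytoplasm, were not called in either fit, with log2 fold changes of -0.43, -0.17 and -0.15 with the block.

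Of 16 clock genes tested, 3 rose, none fell and 13 were not called with the block. The share that rose is near the 12.7% over all genes. None was called by edgeR or DESeq2 without the block, where 2 had an unadjusted p under 0.05 in edgeR. Their median log2 fold change was 0.13 with and 0.11 without the block. NFIL3, a repressor of the clock output genes, rose by 0.49 (adjusted p = 0.0119 with and 0.341 without the block), the repressor CRY2 by 0.54 (adjusted p = 0.017 and 0.389) and the kinase CSNK1D by 0.42 (adjusted p = 0.0178 and 0.305). NFIL3 and CSNK1D were not called without number 2 (adjusted p = 0.0972 and 0.252), nor CRY2 without number 3 (adjusted p = 0.0893). The repressor BHLHE41 did not pass (-0.53, adjusted p = 0.0504 with and 0.4 without the block). With the block and without number 2 it was called lower, at -0.79. The period genes, named after their values were seen, PER1, PER2 and PER3 had log2 fold changes of -0.11, 0.16 and 0.10 with the block.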

How the data were processed

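RNA of 6 libraries was sequenced by BGI on a DNBSEQ platform, whose kits typically enrich mRNA with oligo(dT), per the labels' protocols. RSEM, Bowtie2 and HISAT are named in the submitters' processing notes; versions and annotation are not stated there. The authors deposited expected counts (estimated reads per gene) and TPM in 1 table, whose chromosome accessions belong to GRCh38; 565 lines of spilled annotation text were left out, 26 symbols turned into dates were restored, and expected counts were rounded. Counting intervals and floors (3 counts) cover counting error only.

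Counts were tested with edgeR 4.0.16 (R 4.3.3; TMM, filterByExpr with minimum count 10 and total 15, quasi-likelihood F test, Benjamini-Hochberg), and checked on simulated data. Each SE was taken as |log2 fold change| over the root of its F value. Differences within a number use log2 CPM with prior count 2. Same-numbered libraries carry the same batch tag and deviated together (correlations of 0.716, 0.494 and 0.74 across genes), so the replicate block is given beside the fit without it. Alternatives used DESeq2 1.42.0 and limma 3.58.1. Summaries and figures used Python 3.11.15. The genes, gene lists and the hexamer were chosen with earlier results of these data known. Named were all 10 genes, the short lists, the 5 genes of longer lists with the smallest p with the block, and the 5 with profiles most like ARNT2 among genes of at least 5 CPM. Some listed genes are not reported here by name.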

Additional observations from a re-analysis of the deposited data

How the results depend on the processing

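Without the block edgeR called 3 genes higher and 6 lower in ACSS2 shRNA cells, and 1820 had an unadjusted p under 0.05; with the replicate block it called 1657 and 1608, DESeq2 called 214 and 305 without and 1150 and 1428 with the replicate block, and edgeR with no filter on low counts called 12 and 27. Limma on log2 TPM called 6 higher and 6 lower with either pseudocount, and moved the median of all genes from 0.02 to 0.12 (pseudocount 0.1) and 0.11 (pseudocount 1). Leaving out 1 library without the block gave 0 to 1 genes higher and 0 to 5 lower, and leaving out 1 number with the block gave 664 (number 2), 1382 (number 1) and 1555 (number 3) higher and 917, 1383 and 1554 lower. ARNT2 kept its direction in all 16 alternatives, from -2.38 (without ACSS2 shRNA replicate 3) to -1.54 (limma with pseudocount 1, which understates the change of low genes). ARNT, AHR, NPAS1, NPAS2 and SIM2 kept theirs in all 16 as well, while HIF1A (-0.23 to 0.27), EPAS1 (-0.27 to 0.38) and CLOCK (-0.15 to 0.07) did not. The number of the 9 genes that differ between replicate numbers was 4 with DESeq2 size factors in edgeR and 5 with no filter on low counts, the settings run for it. Of the 29 HIF targets, DESeq2 called 3 higher without and 8 with the replicate block, against 0 and 15 by edgeR. The median of the HIF targets ranged from 0.21 (without control replicate 2) to 0.48, and that of the AHR targets changed sign (-0.38 to 0.34). ACSS2 was not called with DESeq2 and the replicate block (-1.38, adjusted p = 0.124; range -1.80 to -0.56 over its alternatives). Low levels limit HIF3A and NPAS1.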
